A study of Mus musculus with 5 samples.

Results

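The RNA polymerase II (RNAPol2) list held 49650 peaks, or 40.4% of the 122868 peaks in the 4 ChIP-seq lists of the series. Every peak called by the authors in the RNAPol2 sample was kept as a member, and no measured value was used to choose among them. ChIP-seq recovers the DNA fragments bound by a protein, and a peak is a stretch where the recovered fragments exceed a control library.

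All 4 ChIP samples came from 3T9 cells, an immortalized line of mouse embryonic fibroblasts, of the genotype 3T9MycER. MycER is Myc fused to a hormone-binding domain. The fusion is present at all times and was switched on with 400 nM 4-hydroxytamoxifen (OHT). YAPS127A, a mutant form of the transcriptional co-activator YAP, came from an introduced transgene that was turned on with 2 µg/ml doxycycline, in cells that the series design describes as quiescent and confluent. A separate sample was precipitated with each antibody (RNAPol2, TEAD, Myc and YAP), and an input sample completed the series. The RNAPol2, TEAD and Myc samples were fixed with 1% formaldehyde and the YAP sample with an additional crosslinker, and fragments averaged 250 bp. The 4 ChIP samples shared both treatments, so no effect of OHT or doxycycline was compared. With 1 sample per antibody there was no spread between replicates and no test between lists, and differences between lists are given as values side by side. The 95% Wilson intervals in parentheses cover counting error only, since neighbouring peaks are not independent and reads from PCR are not independent molecules.

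RNA polymerase II transcribes protein-coding genes and many non-coding RNAs. It assembles at promoters and, at many genes, pauses a short way downstream of the start, which concentrates signal in a narrow stretch. Elongating polymerase is spread thinly over gene bodies, and it can accumulate again past the 3′ end before it leaves the template. The RNAPol2 antibody, N20-X, was raised against the N terminus of the largest subunit, so it does not select for phosphorylated forms of the C-terminal domain. TEAD is the DNA-binding partner of YAP, and Myc binds chiefly at active promoters. The positions are on the mm9 build, for which no annotation was used here, so peaks were described by position and not by gene. For the same reason the labelled cell type was not checked against marker genes.

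The RNAPol2 library held 38345189 tags and the control library 60189064. The other ChIP libraries held between 20441605 and 31770727 tags. Pileup is the height of extended tags at the summit. Dividing it by the fold enrichment gave the background of each peak, which was expressed relative to the lowest such level in the list. The median RNAPol2 peak had a background 1.07 times that floor, and 1453 peaks (2.93%) had over 2 times. Of the 49650 peaks, 48 lay on 7 minor sequences, 7 of them mitochondrial with a median background 32.0 times the floor.

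RNAPol2 peaks covered 45.7 Mb, against 20.5 Mb for the 48571 TEAD peaks, and the list stood out by its widest peaks. The median width was 543 bp with quartiles of 327 and 1040 bp, and the widest peak measured 33324 bp. The median was larger in the Myc list, at 605 bp with quartiles of 419 and 896 bp, and smaller in the TEAD (345 bp) and YAP (321 bp) lists. The widest peaks of the TEAD, Myc and YAP lists measured 6485, 6493 and 1977 bp. The lower limit was technical, because 1566 RNAPol2 peaks had a width of exactly 233 bp, the fragment length that the caller estimated for this library.

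Peaks of at least 1000 bp made up 26.3% of the list and 62.1% of its covered bases. Classes exclude their upper bound. Peaks under 300 bp numbered 9877 (19.9%), those of 300 to 500 bp 13119 (26.4%) and those of 500 to 1000 bp 13582 (27.4%). Above 1 kb there were 8680 peaks of 1000 to 2000 bp (17.5%), 3634 of 2000 to 5000 bp (7.32%) and 758 of at least 5000 bp (1.53%). The 22996 peaks under 500 bp made up 46.3% of the list and 16.7% of its bases. The 4392 peaks of at least 2000 bp made up 8.85% of the list (8.60% to 9.10%) and 35.9% of its bases. Only 43 TEAD peaks (0.0885%) and 139 Myc peaks (0.968%) were that wide, and no YAP peak was. At the far end, 108 RNAPol2 peaks reached 10000 bp and 9 reached 20000 bp.

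Taller peaks were wider. The pileup ranged from 17 to 466 tags, with a median of 31 and quartiles of 25 and 52. Its median was 24 tags under 300 bp, 27 at 300 to 500 bp, 35 at 500 to 1000 bp, 68 at 1000 to 2000 bp, 71 at 2000 to 5000 bp and 111 at 5000 bp and over. The classes of 1000 to 2000 bp and 2000 to 5000 bp overlapped over most of their ranges, with quartiles of 39 and 126 tags in the first and 48 and 147 in the second. Peaks of at least 2000 bp had a median pileup of 79 tags and peaks under 500 bp one of 26, a ratio of 3.04. Fold enrichment followed the same order, from a median of 4.40 in the narrowest class to 18.4 in the widest. Spearman's rho between width and pileup was 0.757 over 49650 peaks, which share 1 library and 1 control and are both bounded by the caller's threshold.

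**Figure D1:**
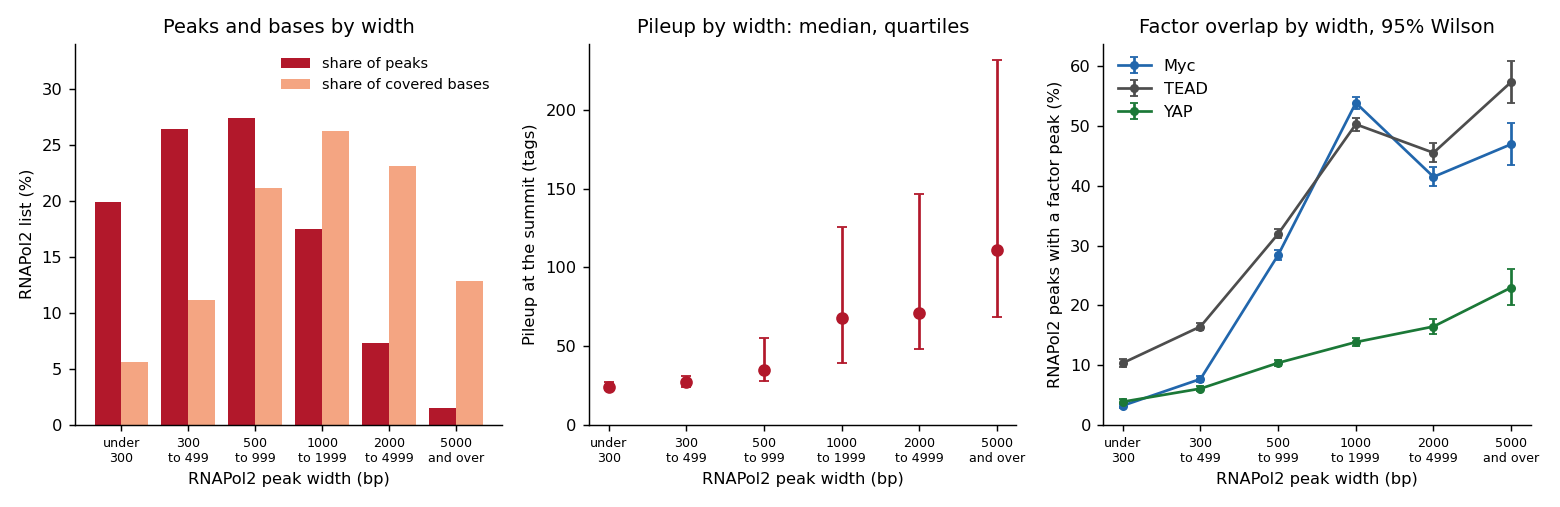
RNAPol2 peaks by width class. The first panel plots the share of peaks and of covered bases (%), the middle panel the pileup at the summit (tags; points are medians and bars quartiles), and the last panel the share of peaks sharing 1 bp or more with a Myc, TEAD or YAP peak (%, bars are 95% Wilson intervals). Peaks of at least 2000 bp are 8.85% of the list and hold 35.9% of its bases, and overlap with Myc is highest at 1000 to 2000 bp.

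Tall and low wide peaks differed in their companions. Of the 4392 peaks of at least 2000 bp, 1822 had a pileup of at least 100 tags and 2570 had less. The widths of the tall and low sets were close, with medians of 2982 and 2886 bp. A Myc peak lay on 86.7% of the tall set and on 11.1% of the low set, and a TEAD peak on 84.8% and 21.2%. YAP peaks lay on 33.3% and 6.38%. Over all RNAPol2 peaks the shares were 23.6% for Myc, 28.1% for TEAD and 9.15% for YAP. The low, wide peaks were mostly parts of longer occupied stretches. Of them, 62.3% belonged to a run of at least 5 peaks with gaps of at most 3 kb. The share was 43.5% of the tall, wide ones, close to the 42.7% of the whole list. The extremes of this contrast were rare. Only 38 peaks combined at least 5000 bp with a pileup under 50 tags, 86.8% of them in such runs, and only 30 peaks combined a width under 500 bp with a pileup of at least 100 tags.

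The commonest tall peak was of intermediate width and stood alone. The 3112 peaks of 1000 to 2000 bp with at least 100 tags had a median width of 1385 bp, 60.4% had no other RNAPol2 peak within 3 kb, and 96.6% held a Myc peak. Along the whole list, Myc overlap went with height, from 1.71% of the 10192 peaks under 25 tags to 8.44% at 25 to 50, 53.3% at 50 to 100, 91.2% at 100 to 200 and 95.03% of the 1166 peaks of 200 tags and over. TEAD overlap went from 6.89% to 90.6% over the same classes. YAP overlap went from 2.24% to 29.6%. Peaks under 50 tags, the bulk of the list at 20.5% and 53.3% for the lowest classes, thus seldom coincided with a factor peak.

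Against width, overlap with Myc was not monotonic. It was 3.18% under 300 bp, 7.64% at 300 to 500 bp, 28.4% at 500 to 1000 bp and 53.9% at 1000 to 2000 bp, and then 41.5% at 2000 to 5000 bp and 47.0% above. The interval at 1000 to 2000 bp (52.8% to 54.9%) lay above those of both wider classes (39.9% to 43.1% and 43.4% to 50.5%). Wider peaks have more bases with which to meet another peak. When the RNAPol2 summit itself had to lie inside a factor peak, any of the 3 factors was met by 42.7% of peaks of at least 2000 bp, compared with 51.9% (50.5% to 53.4%) on the criterion of 1 shared bp. Over all 49650 peaks, 34.2% shared at least 1 bp with a peak of any factor.

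Among peaks of at least 10000 bp the summit often lay near an edge. The summit fell in the outer 10% at either end of the peak in 0.887% of peaks of 1000 to 2000 bp, 4.24% of those of 2000 to 5000 bp and 15.4% (117 peaks) of those of at least 5000 bp. Among the 108 peaks of at least 10000 bp it did so in 34 (31.5%), and among the 9 of at least 20000 bp in 5. Below 1 kb the share ran from 1.35% to 2.81%. A central zone as long as both outer zones together held 19.4% of summits at 5000 bp and over. At 10000 bp and over it held 13.9%, and only from there on did the outer share exceed the central share. The summit thus lay in the outer 10% more often in the widest classes than in the class of 1000 to 2000 bp. In a peak of 1000 to 2000 bp, however, each outer zone is shorter than the estimated fragment length of 233 bp. A summit has little room there, so the rise with width is partly set by this relative measure. Where the summit lay in the outer 10%, most of the occupied stretch extended to 1 side of it.

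The 5 widest peaks show this shape. The widest, on chromosome 9 from 66864795 to 66898118 (33324 bp), reached 385 tags and a fold enrichment of 66.5, with the summit 1147 bp from its right edge. It spanned 9 TEAD, 4 Myc and 5 YAP peaks. On chromosome 3 the peak from 107536397 to 107563772 (27376 bp) reached 236 tags, 636 bp from its right edge. On chromosome 13 the peak from 49702926 to 49728015 (25090 bp) reached 228 tags, 507 bp from its left edge. On chromosome 2 the peak from 50980954 to 51004880 (23927 bp) reached 266 tags, 267 bp from its right edge. In these 4 regions the summit lay between 1.12% and 3.44% of the width from an edge. The exception was chromosome 15 from 11779720 to 11806314 (26595 bp), with a lower pileup of 132 tags, a summit 2892 bp from the edge, no Myc peak and a background 2.14 times the floor. It was 1 of 20 peaks in an occupied stretch of 93.6 kb.

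The 5 peaks of highest pileup were a mixed group, and the first pair rested on a raised background. Both lay side by side on chromosome 17, from 39979909 to 39983888 (466 tags) and from 39983963 to 39985832 (460 tags). Their backgrounds were 42.1 and 38.2 times the floor and their fold enrichments only 2.32 and 2.52. The other 3 were enriched over an ordinary or moderately raised background. A peak of 9710 bp on chromosome 15, from 79904876 to 79914585, reached 452 tags with a fold enrichment of 49.1 and a background 1.93 times the floor. A peak of 13719 bp on chromosome 19, from 5793016 to 5806734, reached 449 tags and 77.6-fold, and it opened an occupied stretch of 9 peaks that ended at 5852010, 59.0 kb from its start. A compact peak of 1727 bp on chromosome 11, from 115884523 to 115886249, reached 435 tags and 83.7-fold, the strongest enrichment of the 5.

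RNAPol2 peaks were packed together. The gap between the edges of neighbouring peaks had a median of 1560 bp with quartiles of 304 and 16056 bp. In the TEAD list, of nearly equal length, the median gap was 15476 bp with quartiles of 4010 and 41704 bp. Gaps of at most 1 kb made up 44.1% of the RNAPol2 gaps and 12.8% of the TEAD gaps, and gaps of at most 3 kb 57.4% and 21.5%. Gaps of at most 100 kb made up 92.1% and 90.6%. The lists thus differed most at close range, and 493 gaps (0.994%) exceeded 1 Mb. The smallest gap was 52 bp in every list, against a tag size of 51 bp, since the caller joins signal that is no further apart than a tag.

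The distribution of RNAPol2 gaps had 2 modes. In intervals of equal width on the log10 scale the most frequent gaps were 178 to 316 bp (10.7%), and frequencies fell to 5.78% at 3162 to 5623 bp. A second, lower rise followed, to 6.36% at 17783 to 31623 bp. The TEAD gaps had their mode in that last interval (14.8%), with 2.75% at 178 to 316 bp. The short mode of the RNAPol2 gaps spans the estimated fragment length of 233 bp.

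**Figure D2:**
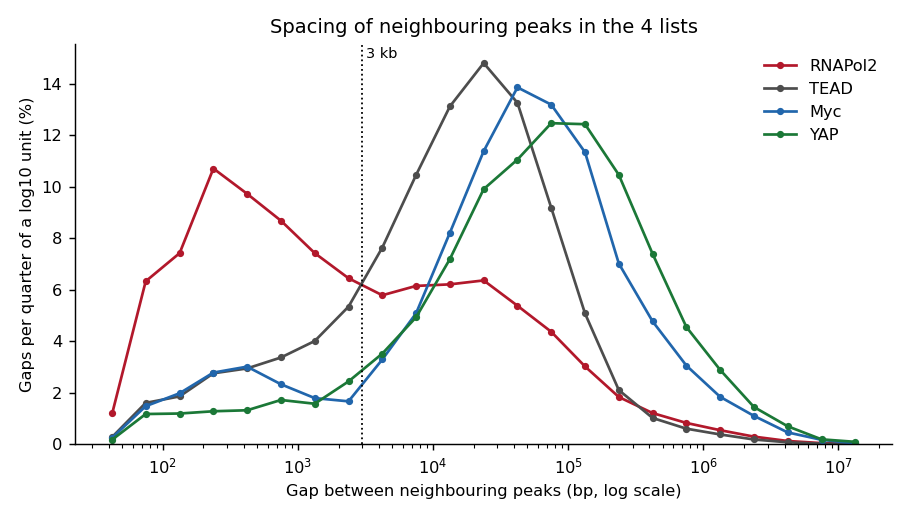
Edge-to-edge gaps between neighbouring peaks of a chromosome in the 4 lists (x, bp on a log scale; y, percent of the gaps of the list per interval of equal width on the log10 scale). The RNAPol2 gaps are most frequent at 178 to 316 bp and the TEAD gaps at 17783 to 31623 bp, and the dotted line marks the 3 kb used to join peaks into runs.

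The heights of neighbouring peaks were weakly related at close range. Spearman's rho between the pileups of neighbours was 0.296 for the 12313 pairs at most 300 bp apart, 0.208 at 300 to 1000 bp, 0.207 at 1000 to 3000 bp, 0.179 at 3000 to 10000 bp and 0.0441 at 10000 to 100000 bp. TEAD neighbours gave values between -0.0146 and 0.0599 over the same distances. The RNAPol2 values are weak, and the pairs share peaks, a library and a control. The median ratio of the taller to the lower neighbour was 1.30 up to 300 bp, 1.25 at 300 to 1000 bp, 1.24 at 1000 to 3000 bp, 1.48 at 3000 to 10000 bp and 1.90 at 10000 to 100000 bp. Within 3 kb the closest pairs were thus not the most alike by this ratio, although their rho was the highest. In pairs within 1000 to 3000 bp, both members were under 31 tags in 46.3%. The share was 27.3% of pairs at most 300 bp apart and 15.6% of pairs 10000 to 100000 bp apart.

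Peaks were joined into runs while the gap to the next was at most 3 kb, which gave 21191 runs. A run of 1 is an isolated peak, of which there were 12650 (25.5% of peaks). There were 3613 runs of 2 peaks, 2559 of 3 or 4, 1730 of 5 to 9, 514 of 10 to 19 and 125 of at least 20. The 2369 runs of at least 5 peaks held 21204 peaks, or 42.7% of the list (42.3% to 43.1%). The TEAD list had 215 such runs with 2.56% of its peaks, and the Myc and YAP lists 10 and 11. The largest run had 118 peaks in the RNAPol2 list and 17 in the TEAD list.

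Runs were long and more filled than empty. Those of at least 5 peaks had a median span of 10731 bp, of which peaks covered a median of 62.1%, and those of at least 20 a median span of 38861 bp. Of the runs spanning at least 10 kb, 1425 in all, 14 were a lone wide peak and the rest were made of several. Spans of at least 50 kb were reached by 32 runs and of at least 100 kb by 6. In the TEAD list 30 runs reached 10 kb and none 50 kb. A long occupied stretch was therefore seldom deposited as a lone peak, although 1 wide peak could make up most of a run. The widest peak, of 33324 bp, lay in a run of 3 peaks that spanned 35.3 kb.

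The count of peaks in runs depended strongly on weak peaks. With a −log10 q of at least 10, which left 28202 RNAPol2 peaks, 17.6% were in runs of at least 5, compared with 0.833% of the 31939 TEAD peaks. When every list was reduced to its strongest 10293 peaks, the length of the YAP list, the shares were 0.379% for RNAPol2, 0 for TEAD, 0.155% for Myc and 0.593% for YAP. Gaps of at most 3 kb then made up 8.82%, 5.16%, 9.65% and 10.6%. At that length the RNAPol2 list no longer had the highest share. The strongest RNAPol2 peaks were thus spaced about like those of the factors, and the runs appeared with the lower ones.

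Within runs most peaks were low, and in 40.8% of the runs of at least 5 the tallest peak reached 100 tags. The median pileup of a run's peaks stayed at 29 to 29.5 tags from runs of 3 or 4 peaks up to runs of at least 20. The tallest peak of the run meanwhile had a median of 60 tags in runs of 5 to 9, 100 in runs of 10 to 19 and 143 in runs of at least 20, and it reached 100 tags in 36.3%, 50.4% and 64.0% of them. The larger the run, the more draws there are for a high value, and its share in the rise was not tested. Isolated peaks had a median pileup of 47 tags, above the 29 tags of peaks in runs of 5 to 9. Background was higher in larger runs, from 1.07 times the floor for isolated peaks to 1.11 in runs of 10 to 19 and 1.20 in runs of at least 20, and its part in the runs was not tested.

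Isolated peaks carried factor peaks more often than peaks in runs. A peak of any factor shared 1 bp with 69.5% of isolated RNAPol2 peaks (68.7% to 70.3%), 33.6% of peaks in runs of 2 to 4 and 13.5% of peaks in runs of at least 5 (13.1% to 14.0%). For Myc the shares fell from 50.1% of isolated peaks to 23.1% in runs of 2 to 4, 9.95% in runs of 5 to 9, 6.83% in runs of 10 to 19 and 4.87% in runs of at least 20. Isolated peaks were also taller and had a larger median width (663 bp, compared with 511 bp in runs of at least 5). A smaller share of them was at least 2000 bp wide (4.62%, compared with 11.3%). The factor shares were not adjusted for height or width.

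The tallest peak of a run was the first or the last in 965 of the 2369 runs of at least 5 peaks (40.7%, 38.8% to 42.7%), 509 times the first and 456 times the last. The TEAD runs gave 40.0% (33.7% to 46.7%) of 215, so the intervals overlapped. In runs of 5 peaks the tallest was at places 1 to 5 in 171, 103, 109, 122 and 132 of 637 runs, with the ends somewhat ahead. The lowest peak served as a reference in the 1861 runs without ties. There the tallest was at an end in 42.1% and the lowest in 37.7%. In the 1395 untied runs of 5 to 9 peaks both shares were 43.7%. The tallest peak was thus at an end slightly more often than the lowest over all runs, and equally often in runs of 5 to 9. The lowest peak may itself favour or avoid the ends, so this reference cannot show whether the tallest had a preference.

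Measured against the span, the tallest RNAPol2 peak lay nearer an end in longer runs. In the 376 untied runs of 10 to 19 peaks the tallest was at an end in 35.9% (31.2% to 40.9%) and the lowest in 20.7% (17.0% to 25.1%). In the 90 untied runs of at least 20 the shares were 43.3% (33.6% to 53.6%) and 15.6% (9.50% to 24.4%). By distance, the tallest summit lay in the outer 10% of the span at either end in 31.4% of runs of 5 to 9, 38.5% of runs of 10 to 19 and 53.6% (67 of 125) of runs of at least 20. The median distance to the nearer end was 8.37% of the span in those largest runs. In the TEAD list the outer share was higher in runs of 5 to 9 (40.1% of 207). TEAD had only 8 runs of 10 to 19 and none of at least 20, too few to compare longer runs. Pooled over all 2369 runs, median pileups on the longer side of the tallest peak were 28 tags at 0 to 1 kb, 27 at 2 to 5 kb, 29 at 10 to 20 kb and 30 at 20 to 50 kb. As a share of the tallest peak of their own run, the same peaks had medians of 72.2%, 48.2%, 23.2% and 19.4%. Different runs contributed at each distance, 391 at 0 to 1 kb and 253 at 20 to 50 kb, so these medians are not a profile within runs.

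The runs with the most peaks and the longest spans, 6 regions in all, differed in shape. The run on chromosome 19 from 55814048 to 55919516 (80 peaks, 105 kb) was tall at 1 end only. Its first peak was 12.7 kb wide and reached 138 tags, and the other 79 peaks reached at most 48, with quartiles of 28 and 34. The run on chromosome 10 from 22806344 to 22943299 (82 peaks, 137 kb) had a peak of 14.7 kb and 113 tags in the third place, and the next tallest reached 62. Backgrounds in these regions were raised, at 1.54 and 1.57 times the floor. On chromosome 5 the run from 93520519 to 93626140 (73 peaks, 106 kb) had 185 tags at its second peak. A further peak of 10.4 kb with 98 tags stood 86.2 to 96.6 kb from the start, with peaks of at most 59 tags between.

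The longest run, on chromosome 6 from 34546766 to 34733415, was tall at both ends. It spanned 187 kb with 102 peaks, which covered 79.4% of it. The second peak was 9.89 kb wide and reached 317 tags, and another of 3.66 kb reached 211 tags between 181 and 185 kb from the start. No peak other than these reached 100 tags, and the quartiles of all but the tallest were 28 and 38. The run held 31 TEAD, 5 Myc and 4 YAP peaks.

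The other regions had no tall peak. The run with the most peaks, on chromosome 11 from 8374160 to 8530292 (118 peaks, 156 kb), had a median pileup of 30 tags. Its tallest peak, of 88 tags, was followed by 4 others, and the next reached 54. On chromosome 15 the run from 42826480 to 42972947 (70 peaks, 146 kb) was the most even. Its tallest peak of 91 tags was 13.8 kb wide, the median was 44 tags, 28 peaks stood at no less than 50% of the tallest, and peaks covered 83.2% of it. The background there was 1.60 times the floor, and that of the chromosome 11 run 1.28.

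**Figure D3:**
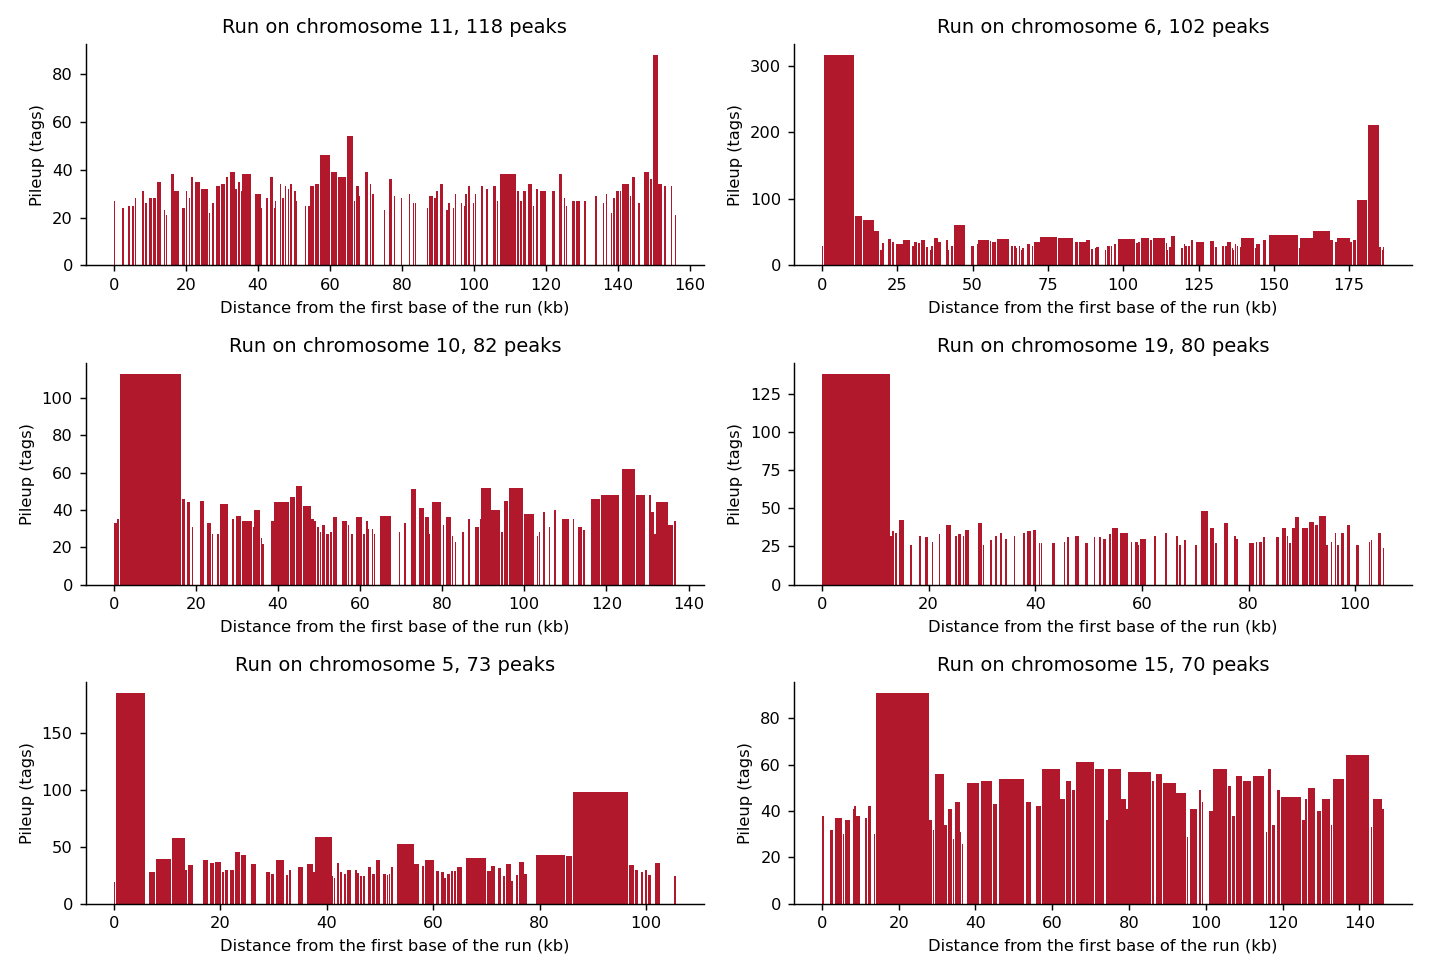
The 6 runs with the most peaks or the longest spans. Each bar is a peak, drawn at its width (x, kb from the first base of the run) and at its pileup at the summit (y, tags), so the height across a wide bar is that of its summit only. The runs on chromosomes 19, 10 and 5 have the tallest peak within the first 3 places, the run on chromosome 6 has 317 and 211 tags near its ends, and those on chromosomes 11 and 15 stay under 100 tags.

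Neighbours of tall peaks tended to lie on 1 side. Of the 6177 RNAPol2 peaks of at least 100 tags (12.4%), 4302 had no other such peak within 20 kb. Among these, 1196 (27.8%) had no RNAPol2 neighbour of any height within 20 kb, 1615 (37.5%) had 1 to 3 and 1491 (34.7%) had at least 4. In 705 of the 1491 all neighbours were on the same side (47.3%, 44.8% to 49.8%), and in 67.1% at least 80% were. For comparison, TEAD peaks of at least 64 tags, a similar share of their list (12.6%), gave 607 with at least 4 neighbours, of which 100 had all on 1 side (16.5%, 13.7% to 19.6%).

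The one-sidedness held at equal numbers of neighbours. With exactly 4 neighbours, 59.9% of tall RNAPol2 peaks (54.3% to 65.3%) and 22.3% of tall TEAD peaks (17.9% to 27.3%) had all of them on 1 side. With 6 the shares were 51.4% and 4.05%, and with 7 to 9 they were 45.0% and 7.46%. At 10 and over, 29.8% of 352 RNAPol2 peaks were one-sided and 0 of 6 TEAD peaks, too few for a comparison. The intervals of the lists did not overlap at 4, 5, 6 or 7 to 9 neighbours. Neighbours follow each other in runs and were not independent draws for either list, and no test of the difference was made. With a reach of 10 kb the shares were 45.6% and 21.4%, and with 50 kb they were 40.6% and 11.2%. Of the 4302 RNAPol2 peaks of at least 100 tags without another such peak within 20 kb, 705 thus had at least 4 neighbours, all on 1 side. A further 1196 had no neighbour. The neighbours were under 100 tags by this selection, and they were not required to form a run.

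**Figure D4:**
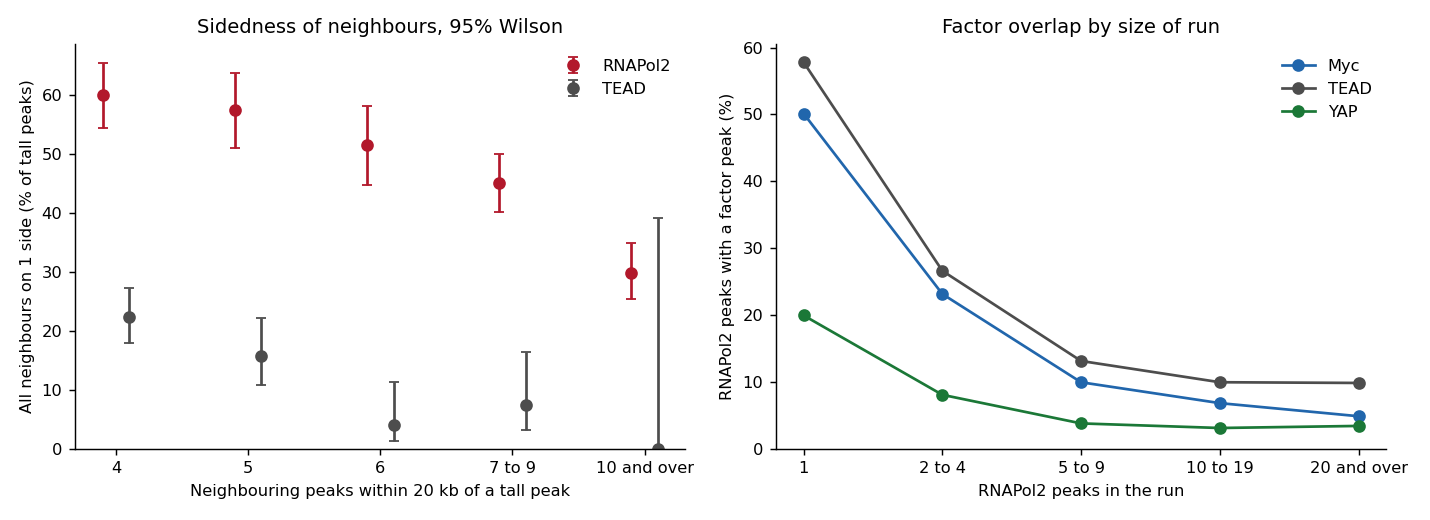
The first panel plots the share of tall peaks with all their neighbours within 20 kb on 1 side (%, y) by the number of neighbours (x) for the RNAPol2 and TEAD lists, and the second the share of RNAPol2 peaks with a Myc, TEAD or YAP peak (%, y) by the number of peaks in the run (x). Bars in the first panel are 95% Wilson intervals. With 4 neighbours 59.9% of the RNAPol2 and 22.3% of the TEAD peaks are one-sided, and Myc overlap falls from 50.1% of isolated peaks to 4.87% in runs of at least 20.

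Low peaks lay closer to tall ones than peaks of middle height did. The median distance to the nearest peak of at least 100 tags was 26.4 kb for peaks under 25 tags, 26.7 kb at 25 to 50 and 40.9 kb at 50 to 100. Within 50 kb of a tall peak lay 67.5%, 66.0% and 54.7% of these classes. Peaks of 50 to 100 tags were also isolated more often (44.3%) than peaks under 25 tags (18.1%) or of 25 to 50 tags (17.8%). The share was 53.6% at 100 to 200 tags and 31.9% at 200 tags and over. In runs of at least 5 peaks lay 45.6% of peaks under 25 tags, 51.6% at 25 to 50, 23.7% at 50 to 100, 18.2% at 100 to 200 and 33.2% at 200 and over. The share in runs was thus lowest at 100 to 200 tags and higher again in the tallest class.

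At the scale of megabases the peaks were concentrated in few regions. The chromosomes were divided into 2644 windows of 1 Mb up to the last peak. The median window held 8 peaks, the upper quartile was 26 and the richest held 170. The richest 264 windows (10%) held 43.8% of the RNAPol2 peaks, compared with 29.8% of TEAD peaks in the 264 windows richest for TEAD, 40.5% for Myc and 40.6% for YAP. To reach 50% of the peaks took 324 windows for RNAPol2 and 535 for TEAD. The RNAPol2 list was thus more concentrated than the TEAD list of like length, and the shorter Myc and YAP lists lay nearer to it.

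**Figure D5:**
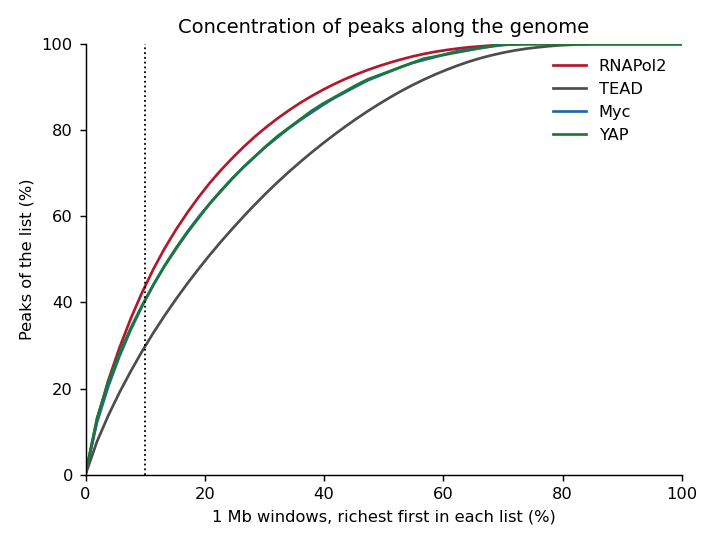
Share of the peaks of each list (%, y) held by its richest 1 Mb windows (%, x, richest first). The dotted line marks the richest 10% of windows, which hold 43.8% of RNAPol2 and 29.8% of TEAD peaks.

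Rich windows mostly held many separate runs and seldom 1 dominant run. The 264 held at least 55 RNAPol2 peaks each and a median of 74, in a median of 27 runs (5 to 56). In 11 of them a lone run held at least 50% of the peaks. Their median pileup of 30.5 tags was close to the 33 of the other windows, and their median background was 1.09 times the floor against 1.02. Rich windows held a median of 44 TEAD and 18 Myc peaks, and the rest 13 and 2. Across all 2644 windows Spearman's rho of the RNAPol2 count was 0.923 with Myc, 0.806 with TEAD and 0.732 with YAP, for lists that share a control library and a genome.

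The 5 richest windows were of both kinds. On chromosome 11 from 8 to 9 Mb, 118 of 170 peaks belonged to the run already described. On chromosome 19 from 55 to 56 Mb, 80 of 151 did so. On chromosome 15 from 76 to 77 Mb the 168 peaks formed 46 runs with at most 15 peaks each, on chromosome 9 from 21 to 22 Mb the 164 peaks formed 56 runs and on chromosome 17 from 56 to 57 Mb the 151 peaks formed 48. Those last 3 windows held 49, 31 and 31 Myc peaks, and the window on chromosome 11 held 9. Among these windows, picked as the richest, similar counts of RNAPol2 peaks thus came with unlike numbers of Myc peaks. Over all windows the RNAPol2 and Myc counts rose together (Spearman's rho 0.923).

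RNAPol2 peaks were missing from 686 windows (25.9%). Of these, 60 lay before 3 Mb, where none of the 60 windows of the 20 chromosomes held a peak. TEAD peaks were present in 303 of the windows without RNAPol2, 1766 peaks in all or 3.64% of the TEAD list, while YAP was present in 141 and Myc in 32. No factor peak lay in 366. The reverse, a window with RNAPol2 and without TEAD, occurred 18 times.

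The 5 longest stretches without an RNAPol2 peak measured 9.14 to 11.6 Mb. The longest, on chromosome 14 from 87823936 to 99429022, held 9 TEAD peaks, no Myc peak and 1 YAP peak. A second on chromosome 14 (106298333 to 115440018) held 7 TEAD peaks and no other. On chromosome X, the stretches from 23270577 to 33428474 and from 110299275 to 120216779 held 3 and 2 TEAD peaks, no Myc peak and 1 YAP peak each. The stretch on chromosome 15 from 12869668 to 22268659 differed, with 30 TEAD and 26 YAP peaks beside 1 Myc peak over 9.40 Mb. None of the 5 stretches held more than 1 Myc peak, and only the one on chromosome 15 held over 9 TEAD or over 1 YAP peaks.

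Peak density differed 5.82-fold between chromosomes. It was highest on chromosomes 19, 15 and 11, with 38.0, 36.9 and 35.5 peaks per Mb up to the last peak, and lowest on 14, 12 and X, with 9.33, 8.35 and 6.54. Chromosome X also had the largest share of empty windows (44.3%), followed by chromosome 14 (41.1%). The share of peaks in runs of at least 5 went from 27.7% on chromosome 12 to 56.7% on chromosome 15. Background was raised on chromosomes 15 (1.504 times the floor), 10 (1.40), 19 (1.33) and 11 (1.20), which include the 3 densest, and its part in their density was not tested. Without chromosomes 10, 15 and 19, 41.0% of peaks were in runs of at least 5 and 8.48% were at least 2000 bp wide. TEAD density followed a similar order (Spearman's rho 0.901 over 20 chromosomes, which share the control), and the number of RNAPol2 peaks per TEAD peak lay between 0.740 on chromosome 13 and 1.31 on chromosome 5.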

How the data were processed

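Sample titles gave the groups. MACS2 2.0.9, BWA 0.6.2, SAMtools and mm9 are named in the submitters' processing notes. Each sample had its own peak calling by the authors, with a p-value cutoff of 1e-05, tags of 51 bp and at most 2 tags per position, per the file headers. All 4 lists used 1 control library, and whether it is the sample labelled as input is not given in the sources used here. That sample had no list and was not used here. The deposited pileup is a signal of extended tags at the summit, and the authors' fold enrichment is its ratio to a local background. The deposited −log10 p-values and −log10 q-values (the log10 scale is the caller's) served for ranking and thresholds, and other deposited columns are positions, 1-based on mm9. The lists hold only peaks above the cutoff, so signal below it was not measured.

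Widths, gaps, runs (gaps of at most 3 kb), windows of 1 Mb by summit and overlaps of 1 bp were computed with pandas 2.3.3, scipy 1.17.1 and numpy 2.4.6 in Python 3.11.15. Figures were drawn with matplotlib 3.10.9. Shares have 95% Wilson intervals. The routines were tested on simulated data. Named regions were the 5 widest peaks, the 5 of highest pileup, the 5 runs with most peaks, the 5 of longest span, the 5 windows with most peaks and the 5 longest stretches without a peak. The members and the definitions were chosen with earlier results of these data known. Gene names and sequences were not analysed here, since the annotation at hand was of another build. The alternatives were a stricter q-value, the stronger 50% of the list, fewer chromosomes, and other joining gaps, windows, overlaps and measures of height.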

Additional observations from a re-analysis of the deposited data

How the results depend on the processing

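Of 53 alternatives tried, 21 left a value within the 95% interval of the value reported and 32 moved it beyond. No paired analysis was possible because each antibody had 1 sample and no result came from a test. A single library per antibody limits all values, since the spread between samples is unknown, and the depth and the cutoff of the caller decide which weak stretches enter the list.

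When peaks were held to −log10 q values of 10 or more, or to the stronger 50% of the list, the share of peaks of at least 2000 bp (8.85%) became 15.5% and 17.5%, the ratio of median pileups of wide to narrow peaks (3.04) became 2.47 and 2.35, and the share of gaps of at most 3 kb (57.4%) became 38.2% and 33.8%. The share of peaks in runs of at least 5 (42.7%) became 17.6% and 12.7%, that of runs with the tallest peak at an end (40.7%) 45.1% and 49.1%, that of peaks in the richest windows (43.8%) 42.6% and 42.7%, and that of tall peaks with all neighbours on 1 side (47.3%) 43.7% and 40.3%. Without chromosomes 10, 15 and 19 the shares of wide peaks, of short gaps and of peaks in runs were 8.48%, 56.2% and 41.0%.

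Joining peaks at 1 kb or 10 kb gave 24.0% and 59.99% of peaks in runs and 37.5% and 44.3% of runs with the tallest peak at an end. Gaps between summits of at most 3 kb made up 51.2%, and the ratio was 6.07 with −log10 p in place of pileup. The share in runs was 0.379% with all lists of the length of the shortest. The share in the richest windows was 51.5% at 500 kb, 30.6% at 5 Mb and 47.4% by covered bases, and factor overlap of wide peaks by summit was 42.7%. Of the alternatives chosen after seeing the data, a list of the length of the TEAD list gave 41.4% of peaks in runs, counting the first 2 or last 2 places gave 66.2%, windows from 3 Mb on gave 43.1% and a reach of 50 kb gave 40.6%. Those on the sides of tall peaks were also chosen after seeing the data. The cause of these changes was not tested, except that a stricter list or a wider joining gap changes the number of peaks or gaps by construction.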
